A study of Mus musculus with 9 samples.

Results

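The reactive astrocyte genes followed here are 8 genes, namely Gfap, Vim, Nes, Serpina3n, Lcn2, Aspg, Cd44 and Osmr. They were listed by symbol as known genes of astrocyte reactivity, with earlier results of these data known, and all 8 are among the 12580 genes listed in every file, so that a value of 0 never stands for a missing gene. Their transcripts were read in mouse-derived cells of glioblastoma (GBM) patient-derived orthotopic xenografts (PDOXs), tumors that grow in the brains of nude mice after patient-derived organoids are placed there, and in the brain of a nude mouse without tumor. The 9 samples were read by Drop-seq, a droplet method in which the beads' barcodes tell cells apart and the 3′ ends of transcripts are counted as unique molecular identifiers (UMIs). Host mice without treatment gave 7 PDOXs, 1 each of P3, P8, P13, T16, T101, T192 and T233. A further P3 PDOX (P3TMZ) had received temozolomide, an alkylating drug, and Nude-Brain is a single normal brain. All mice carry the nude mutation and so lack a normal T cell compartment. Tumor cells are human and host cells are of the mouse, and only the latter were analysed. T192 and T233 were derived from tumors of the same patient, so they are not independent tumors. The methods state that P8 and Nude-Brain were sorted by FACS and the other PDOXs were purified by MACS depletion, and the files of P8 and Nude-Brain also use an older set of gene symbols. Sort and symbol set therefore split the samples the same way and cannot be told apart, and P8 is the sole PDOX handled like the normal brain. The hosts were female and their age is not given in the sources used here.

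Reactive astrocytes are astrocytes that respond to injury, inflammation or a tumor in their surroundings. They enlarge, build up intermediate filament proteins, secrete acute phase proteins and display receptors for cytokines and matrix. Oncostatin M and related cytokines of the interleukin-6 family act on astrocytes through receptors that share the gp130 subunit, and the transcription factor STAT3 downstream of them is a known activator of Gfap. Gfap, Vim and Nes encode the intermediate filament proteins glial fibrillary acidic protein, vimentin and nestin. Serpina3n encodes a secreted serine protease inhibitor and Lcn2 the secreted siderophore-binding protein lipocalin-2. Aspg encodes an asparaginase. Cd44 is a receptor for hyaluronan and osteopontin, and Osmr is the subunit that makes the oncostatin M receptor specific. Vim and Nes are also made by blood vessel cells of the brain, so the cell class in which a transcript is counted matters for all of the values below.

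In build GRCm38 the 8 genes lie on 5 chromosomes. Gfap is at chr11:102887336-102900912 (minus strand), Vim at chr2:13573927-13582826 (plus), Nes at chr3:87971078-87980451 (plus) and Serpina3n at chr12:104406729-104414329 (plus). Lcn2 is at chr2:32384633-32388252 (minus), Aspg at chr12:112106679-112127559 (plus), Cd44 at chr2:102811141-102901665 (minus) and Osmr at chr15:6813577-6874969 (minus). All are annotated as protein-coding. RefSeq promoter windows of 300 bases (mostly upstream of the annotated start and reaching past it, GRCm38.p6) were found for 8 of 8 genes and were searched on both strands for TTCNNNGAA, a core that STAT factors bind, and TGANTCA, a core that AP-1 factors bind. The 2 windows with a match are shown because they belong to the filament gene that defines astrocyte reactivity and to the cytokine receptor. The capitals mark the matched motif, whose first base lies at position -2 from the RefSeq start in Gfap and at position 4 in Osmr. This start differs from the end of the gene span given above, as both windows lie inside the spans.
Gfap, STAT core, chr11:102897151-102897450, minus strand: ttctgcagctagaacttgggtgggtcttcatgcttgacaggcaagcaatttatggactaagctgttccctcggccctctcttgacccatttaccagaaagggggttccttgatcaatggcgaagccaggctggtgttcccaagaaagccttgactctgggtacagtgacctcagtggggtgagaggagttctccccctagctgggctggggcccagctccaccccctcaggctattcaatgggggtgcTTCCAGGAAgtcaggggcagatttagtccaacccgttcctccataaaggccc
Osmr, AP-1 core, chr15:6874264-6874563, minus strand: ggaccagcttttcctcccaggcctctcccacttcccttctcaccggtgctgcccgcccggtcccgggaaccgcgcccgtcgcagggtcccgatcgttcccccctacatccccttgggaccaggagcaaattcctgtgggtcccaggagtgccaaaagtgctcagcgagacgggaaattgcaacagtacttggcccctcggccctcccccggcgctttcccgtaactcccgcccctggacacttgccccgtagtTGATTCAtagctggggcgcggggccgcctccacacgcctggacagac
The other 6 windows hold neither motif. Of all 32851 RefSeq windows of this length, 8.3% hold the STAT core and 7.81% the AP-1 core, and the match is a description of these letters only.

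Between 722 and 2770 cells per sample were kept, 14622 in all, from files with 1294068 to 8410580 UMIs and with a median of 521 to 1303 UMIs per kept cell. Clusters were named from marker genes and carry the ending "-like". In all, 2909 cells were astrocyte-like, 853 of them in Nude-Brain, and 10 cell barcodes were shared over all pairs of samples. P3 held fewer than 10 astrocyte-like cells and was left out of the astrocyte-like comparison, which has 6 PDOXs. The 14 astrocyte markers listed in every file summed to 30269 to 43353 CPM (UMIs scaled to the total of the same cells) in astrocyte-like cells of these PDOXs and to 41969 CPM in Nude-Brain. None of the 8 genes was used for clustering or naming.

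In astrocyte-like cells the level of most of the 8 genes was higher in the PDOXs than in the normal brain, by differences that did not pass the test. Gfap, Vim, Serpina3n, Aspg, Cd44 and Osmr were above Nude-Brain in each of the 6 PDOXs, Nes in 5 of 6, and Lcn2 in T192 alone once the brain's 0 is set to its floor. Having every PDOX above the brain was seen for 13.9% of the 5542 genes tested in these cells and for 6 of the 8 reactive astrocyte genes. That count was 3 with every cell counted equally (Gfap, Vim and Serpina3n), 3 in cells thinned to equal depth (Gfap, Vim and Cd44), 3 with classes called cell by cell from markers and 2 within cluster 10, and Gfap and Vim were in each of these. The test was edgeR's quasi-likelihood test over all genes, in which the single brain gives no estimate of its own spread. Of the 6 untreated PDOXs T192 held the highest level of all 8 genes, against 22.2% of the genes tested that were highest in T192.

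Gfap, the filament protein that defines astrocyte reactivity, stood at 44.8 CPM in Nude-Brain (26 UMIs of 580877). In the PDOXs its level was 408 CPM in P8, 1730 in T101, 1743 in T192, 1459 in T233, 218 in T16 and 297 in P13. No PDOX overlapped with the brain, and T101, T192 and T233 lay far above P8, T16 and P13. Averaged over PDOXs, Gfap reached 976 ± 741 CPM (SD, n = 6), 21.8 times the brain, and the fitted log2 difference was 4.24 ± 1.08 (SE, edgeR, adjusted p = 0.326). The lowest ratio of a PDOX to the brain, in T16, was 4.88 with an exact 95% interval of 2.94 to 8.26. Such intervals cover counting error only, here and below, and cells of a sample are not replicates.

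Vim, which rises with Gfap in textbook astrocyte reactivity, was at 39.6 CPM in Nude-Brain. It was at 448 CPM in P8, 1951 in T101, 4659 in T192, 709 in T233, 288 in T16 and 347 in P13. The PDOXs stood in the same order as for Gfap, with T16 lowest and T192 highest, and the brain was again below each of them. The fitted log2 difference was 4.99 ± 1.41 (SE, edgeR, adjusted p = 0.326). Nes, the filament protein of neural progenitors that astrocytes take up again when reactive, was far lower, at 8.61 CPM in the brain and 24.3 in P8, 0 in T101, 153 in T192, 20.8 in T233, 34.8 in T16 and 41.7 CPM in P13. T101 had no Nes UMI among its 27171 UMIs, the smallest sum of the 6 PDOXs. The other 5 were above the brain, but T233 rests on 1 UMI, with a ratio of 2.42 (0.0512 to 21.6), and the interval of P8 also includes equality. The fitted log2 difference of Nes was 2.51 ± 1.06 (SE, edgeR, adjusted p = 0.420).

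**Figure D1:**
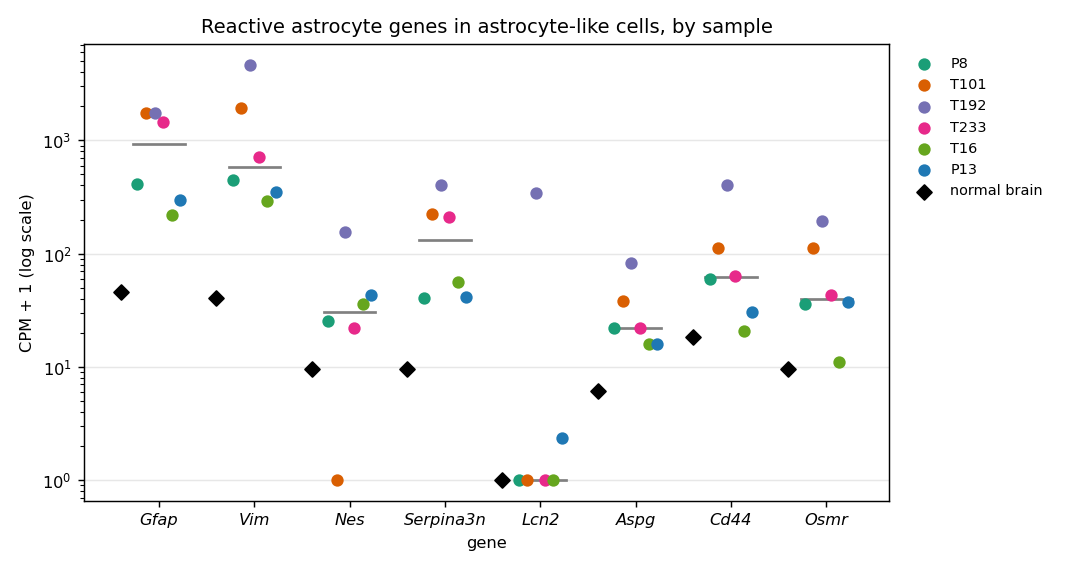
Level of each reactive astrocyte gene in astrocyte-like cells, as CPM + 1 of summed UMIs on a log axis, with a colored point for each PDOX, a black diamond for the normal brain and a grey line at the median of the 6 PDOXs. The diamond lies below every PDOX for Gfap, Vim, Serpina3n, Aspg, Cd44 and Osmr, and T192 is the highest point of the 6 untreated PDOXs for all 8 genes.

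Of the secreted proteins, Serpina3n, a serine protease inhibitor of the acute phase, was at 8.61 CPM in Nude-Brain and at 39.9 in P8, 221 in T101, 406 in T192, 208 in T233, 54.6 in T16 and 40.3 CPM in P13. All 6 PDOXs were above the brain, T101, T192 and T233 most of all. Its fitted log2 difference was 3.90 ± 1.23 (SE, edgeR, adjusted p = 0.326). Lcn2 behaved otherwise. No Lcn2 UMI was counted in astrocyte-like cells of Nude-Brain, P8, T101, T233 or T16, a single one in P13, and 62 in T192, where its level was 340 CPM. Against the 5.16 CPM that 3 UMIs would give in the brain, T192 was at least 65.8-fold higher, and the fitted log2 difference of 7.29 ± 3.53 (SE, edgeR, adjusted p = 0.452) depends on how the 0 of the brain is handled. Aspg, the asparaginase, was low throughout, with 5.16 CPM in Nude-Brain (3 UMIs), 20.8 in P8, 36.8 in T101, 82.2 in T192, 20.8 in T233, 14.9 in T16 and 14.8 CPM in P13. T101 and T233 rest on 1 Aspg UMI each, and the ratios to the brain in T16 and P13, 2.88 (exact 95% interval 0.386 to 21.5) and 2.86 (0.756 to 15.98), have intervals that include equality. The fitted log2 difference was 2.40 ± 1.27 (SE, edgeR, adjusted p = 0.490).

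Of the receptors, Cd44 was at 17.2 CPM in Nude-Brain and at 59.0 in P8, 110 in T101, 406 in T192, 62.5 in T233, 19.9 in T16 and 29.6 CPM in P13. T16 and P13 lay close to the brain, with ratios of 1.15 (0.264 to 4.0) and 1.72 (0.781 to 4.06), and T233, on 3 UMIs, had a ratio of 3.63 (0.642 to 14.1), so that a difference was not detectable in these 3 PDOXs at this depth. Osmr was at 8.61 CPM in Nude-Brain and at 34.7 in P8, 110 in T101, 191.8 in T192, 41.7 in T233, 9.93 in T16 and 36.3 CPM in P13. The Osmr value of T101 is 3 UMIs, all in 1 of its 46 cells. T16 and T233, with 2 UMIs each, had ratios of 1.15 (0.110 to 7.05) and 4.84 (0.461 to 29.6), and both intervals include equality. The fitted log2 differences were 2.59 ± 1.16 for Cd44 (SE, edgeR, adjusted p = 0.441) and 2.76 ± 1.10 for Osmr (SE, edgeR, adjusted p = 0.402).

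Across the 5542 genes tested in astrocyte-like cells, edgeR called 0 genes at an adjusted p of at most 0.01 with a log2 difference of at least 1 (0%). DESeq2 called 0 as well, and 617 genes had an unadjusted p under 0.05 in edgeR. All 8 reactive astrocyte genes passed the filter on low counts, with a median fitted difference of 3.33 beside 0.03 over all genes tested, and 51.4% of all genes tested were above 0. The filter can be passed through the PDOXs alone, so genes low in the brain enter it because they are high in the PDOXs, and the sign and median over genes that passed are a description only. Without that filter edgeR called 34 genes, among them Gfap (adjusted p = 0.000217), Vim (adjusted p = 1.5e-05), Serpina3n (adjusted p = 0.00309) and Lcn2 (adjusted p = 0.00201), and without P8 it called 12 genes, none of them one of the 8. The fit without the filter lets in every gene with any UMI among the 12580 listed in every file. Gfap, Vim, Serpina3n and Lcn2 were each called in that alternative alone, of 17 (15 for Lcn2). An exact permutation test of 1 brain against 6 or 7 PDOXs could not reach 0.05 for any single gene, since its smallest p is 0.125 with 7 PDOXs. Without T192 the fitted differences remained above 0 for the 7 genes that could be fitted. Gfap then had a log2 difference of 3.84 and Vim of 3.87, and those of Cd44 and Serpina3n were 1.29 and 2.93. Nothing in the labels says how many mice stand behind a PDOX sample, so the spread between samples may include technical spread.

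**Figure D2:**
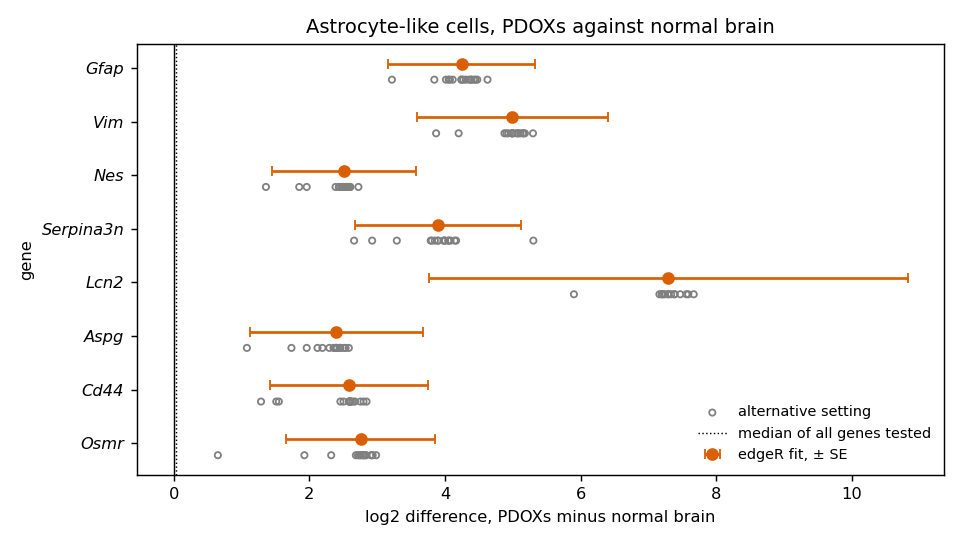
Log2 difference of each gene between astrocyte-like cells of PDOXs and of the normal brain (x axis), with the edgeR fit as a filled point with its standard error and each alternative setting as an open circle. All points lie above 0 for all 8 genes, and the bars are widest for Lcn2, at 7.29 ± 3.53.

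P8 and Nude-Brain went through the same sort, carry the same gene symbols and have sums of like size (575811 and 580877 UMIs). Within this pair Gfap was 9.12 times as high in P8 (exact 95% interval 6.07 to 14.3) and Vim 11.3 times (7.38 to 18.2). Serpina3n was 4.64 times (1.73 to 15.6), Aspg 4.04 times (1.09 to 22.3), Osmr 4.04 times (1.47 to 13.8) and Cd44 3.43 times as high (1.66 to 7.78). For Nes the ratio was 2.82 with an interval of 0.961 to 10.02, which includes equality, and Lcn2 had no UMI in either. In all, 7 of the 8 genes were at least 2 times as high in P8 as in the brain, against 11.4% of all genes tested. The levels of P8 for genes other than Gfap and Vim are set beside those of near-empty barcodes further on. P8 and the brain are 1 sample each, so this pair compares those libraries and not the conditions.

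The share of astrocyte-like cells with a transcript was counted after each cell had been thinned to 500 UMIs, which leaves out shallower cells. In Nude-Brain 1.06% of 473 cells held a Gfap UMI. In the PDOXs the share was 11.8% in P8, 27.3% in T101 (3 of 11 cells), 50.6% in T192, 41.4% in T233, 9.40% in T16 and 8.51% in P13, and averaged 24.8 ± 18.0% (SD, n = 6). Gfap was thus found in more cells of every PDOX, and T192 and T233 stood out again. For Vim the share was 1.90% in the brain and 24.6 ± 18.2% (SD, n = 6) in the PDOXs, with 7.53% in P8 as the lowest and 46.9% in T192 as the highest. Lcn2 was found in 7 of 81 cells of T192 (8.64%) and in 0 of 473 cells of the brain, for which 3 counts would make 0.634% and the exact 95% upper bound is 0.777%. These limits concern cells with an Lcn2 UMI at 500 UMIs, not cells that express the gene. At this depth most of the other genes were seen in few cells. Serpina3n reached 14.8% and Cd44 11.1% in T192, and Aspg did not exceed 3.70% in a PDOX with over 11 such cells.

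In droplet data RNA from other cells gives UMIs in cells that do not make a transcript, so the same shares were read in other classes. At 500 UMIs a Gfap UMI was found in 1.09 ± 1.11% (SD, n = 7) of myeloid-like and in 0.0868 ± 0.230% (SD, n = 7) of endothelial-like cells of the PDOXs, and in 0 of 311 myeloid-like cells of Nude-Brain. The brain's share in astrocyte-like cells, 1.06%, lies at the level of the PDOXs' myeloid-like cells, and all 6 PDOX shares in astrocyte-like cells lie above it. For Vim the shares were closer. A Vim UMI was found in 3.29% of myeloid-like cells of P8, 17.2% in T101, 7.85% in T192, 10.4% in T233, 1.45% in T16 and 11.6% in P13. The astrocyte-like share was above these in 5 PDOXs and not in P13, at 11.0%, and in T16, at 9.40%, it was near the 8.70% of OPC-like cells. How much of these shares is background was not tested.

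Barcodes with fewer than 100 detected genes are called near-empty here. They were compared with astrocyte-like cells of the same sample in the 5 PDOXs with enough of them. Whether they are droplets without a cell or remains of cells was not tested. Against 41969 CPM in astrocyte-like cells, Nude-Brain held the astrocyte markers at 23019 CPM in these barcodes. Gfap stood in them at 35.6 CPM in Nude-Brain (1 UMI), 146 in P8, 106 in T101, 148 in T192 and 177 in T233, and was higher in astrocyte-like cells of 5 of 5 PDOXs. Vim, Cd44 and Osmr were higher in astrocyte-like cells of 5 of 5 PDOXs as well, Serpina3n in 3, Aspg in 4, and Nes and Lcn2 in T192 alone. The margin was small in several. Vim was at 1718 CPM in near-empty barcodes of T101 against 1951 CPM in astrocyte-like cells, and at 313 against 448 CPM in P8. In P8, near-empty barcodes held 40.9 CPM of Serpina3n, 57.9 of Cd44, 30.7 of Osmr, 27.2 of Aspg and 136 of Nes, against 39.9, 59.0, 34.7, 20.8 and 24.3 CPM in astrocyte-like cells. For these 5 genes the astrocyte-like level of P8 was thus at, near or under that of near-empty barcodes. In Nude-Brain, Vim, Nes and Serpina3n were higher in near-empty barcodes (107, 178 and 71.3 CPM, with 1 UMI making 35.6 CPM) than in astrocyte-like cells. The part of free RNA in the astrocyte-like levels was not tested.

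**Figure D3:**
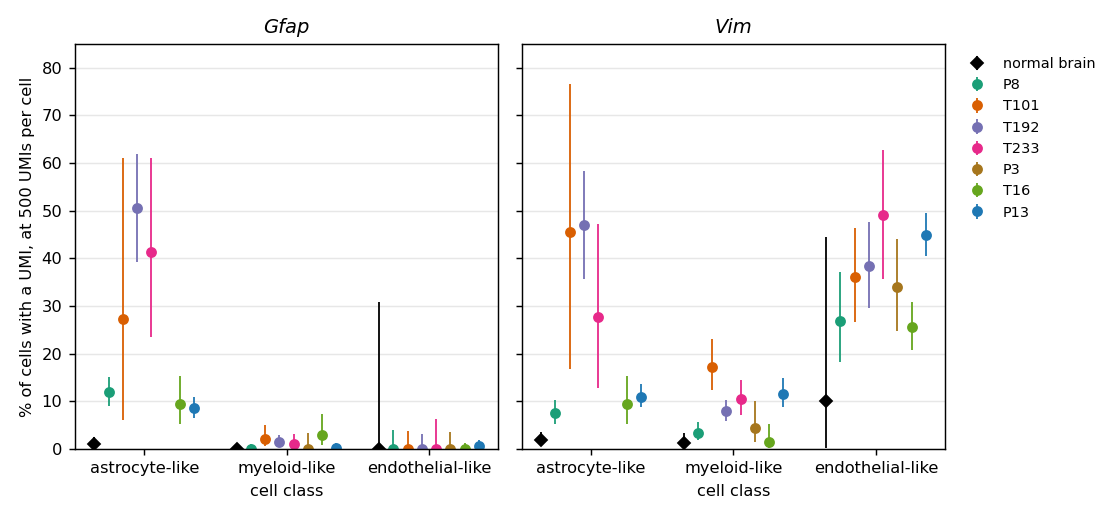
Percentage of cells with at least 1 UMI of Gfap (left) and Vim (right) after thinning to 500 UMIs per cell, by cell class, with 1 point per sample and exact 95% binomial intervals. Gfap is found in at most 2.90% of myeloid-like cells of the untreated PDOXs, while Vim is found in 25.6% to 49.1% of endothelial-like cells of the PDOXs.

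Cells with several reactive astrocyte genes were most frequent in T192. At 500 UMIs, 4.86% of astrocyte-like cells of Nude-Brain held a UMI of at least 1 of the 8 genes, and 19.1% did in P8, 54.5% in T101, 72.8% in T192, 62.1% in T233, 18.8% in T16 and 23.2% in P13. At least 3 of the genes were found in 22.2% of T192 cells, in 0% of brain cells and in at most 3.45% of the cells of any other PDOX. Gfap and Vim were found in the same cell in 3.01% of P8 cells, where the product of the 2 shares is 0.890%, and in 32.1% of T192 cells, where the product is 23.7%. In each of the 6 PDOXs the share of cells with both exceeded the product of the shares, in T101 with 11 cells only. In P8, 25.5% of the 55 cells with Gfap and 5.12% of the 410 others held a Vim UMI.

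**Figure D4:**
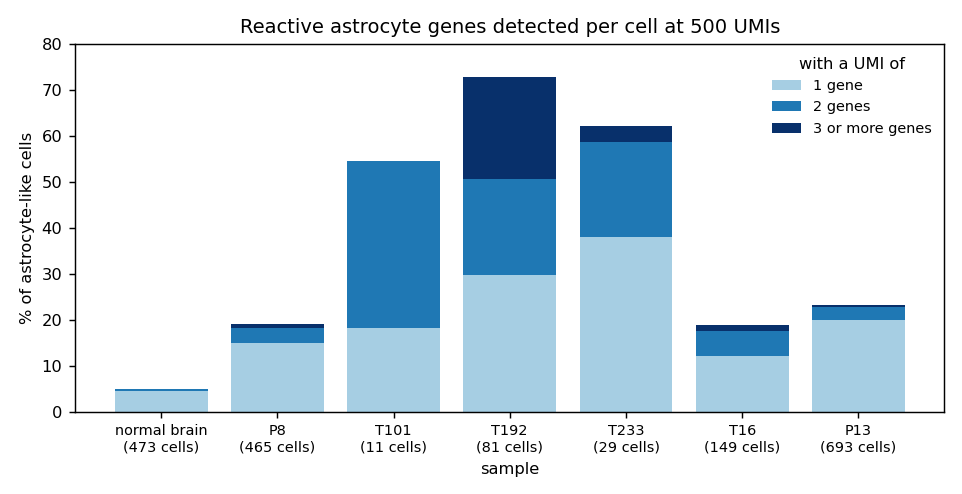
Percentage of astrocyte-like cells (y axis) with a UMI of 1, 2 or at least 3 of the 8 reactive astrocyte genes, after thinning to 500 UMIs per cell, by sample with its number of cells. Bars reach 4.86% in the normal brain and 72.8% in T192, the one sample with a large share of cells that hold 3 or more of the genes.

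In T192 a few cells held much of some transcripts, while Gfap was spread over 68 of its 120 astrocyte-like cells, 5 of which held 34.3% of its UMIs. Of its 850 Vim UMIs, 57.9% lay in 5 of 120 cells and 146 in a single cell, and of its 62 Lcn2 UMIs, 29 lay in 1 cell and 83.9% in 5 cells. In P13, with 740 cells, 5 cells held 18.6% of the Gfap UMIs. T192 cells with a Vim UMI were also deeper, with a median of 1604 UMIs against 496.5 in cells without. They held 5864 CPM of the myeloid markers against 2544 in cells without, and 30663 CPM of the astrocyte markers against 39029. Over all astrocyte-like cells the 12 myeloid markers, all of them listed in every file, summed to 4999 CPM in T192 and 5900 in T233, to 747 to 1803 CPM in the other 4 PDOXs and to 620 CPM in Nude-Brain. Vessel markers were above the brain in all 6 PDOXs as well, the 12 endothelial ones at 57.3 to 383 CPM against 43.0 and the 12 mural ones at 137 to 305 CPM against 117, and their part in Vim, Nes and Osmr was not tested. With every cell counted equally T192 was still the highest of the 6 untreated PDOXs, at 1426 CPM for Gfap, 2074 for Vim and 396 for Serpina3n. The part of myeloid transcripts in the levels of T192 was not tested. The share of UMIs on processed pseudogenes also split the samples, at 0.150% in Nude-Brain and 0.119% in P8 and 2.505% to 4.4% in the other 5 PDOXs, and its part was not tested either.

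Astrocyte-like cells fell into 3 clusters, and Gfap and Vim were above the brain in each. In cluster 2 (led by Gm3764 and Dclk1) Gfap was at 62.2 CPM in the brain and at 238 to 1173 CPM in 6 PDOXs, and Vim at 45.2 and 270 to 904 CPM. In cluster 4 (led by St6galnac5 and Fjx1) Gfap was at 32.5 CPM and at 365 to 1939 CPM in 4 PDOXs, and Vim at 39.7 and 401 to 5947 CPM. In cluster 10 (led by Agt and Slc6a11) Gfap was at 47.2 CPM and at 64.6 to 1035 CPM in 5 PDOXs, and Vim at 31.5 and 64.6 to 237 CPM. The PDOX ranges of Gfap and Vim thus lay above the brain within each cluster, and were lowest in cluster 10. There T101 rests on 1 UMI of Gfap and 1 of Vim, T192 on 1 UMI of Vim and T16 on 3 UMIs of each, against 6 Gfap and 4 Vim UMIs in the brain, so these values are uncertain. Serpina3n was above the brain in 6 of 6, 4 of 4 and 4 of 5 PDOXs in these clusters. In cluster 10 Aspg and Osmr were above it in 1 of 5 PDOXs each, Cd44 in 2 of 5 and Nes in 3 of 5, and in cluster 2 Aspg was above it in 4 of 6 and Cd44, Osmr and Nes in 5 of 6 each. The brain had no UMI of Cd44 or Nes in cluster 10, nor of Osmr in cluster 2. Any UMI in a PDOX counts as above it there. The Lcn2 of T192 was mostly in cluster 4, at 441 CPM, against 32.6 CPM in cluster 2 and 0 in cluster 10. Only in cluster 4 was T192 the highest PDOX for all 8 genes. In cluster 2 T101 was highest for Vim (904 CPM) and P8 for Cd44 (59.8 CPM), and in cluster 10 T101 was highest for Vim (237 CPM). The clusters were unevenly filled, with 42.4% of the brain's astrocyte-like cells in cluster 2 against 31.4% in P8 and 70.7% in T16.

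Levels across cell classes of the PDOXs differed between the 8 genes. Clusters come from the same cells, so these levels are given with no test, and the order covers the 7 classes named as astrocyte-like, OPC-like, myeloid-like, endothelial-like, mural-like, fibroblast-like and choroid plexus-like. Cycling, unnamed and mixed cells, and other small classes, stand outside it. Gfap was astrocyte-like by far, with a median of 934 CPM over 6 PDOXs (218 to 1743), and its range was apart from that of every other class in this order. The next were choroid plexus-like cells, at 53.5 CPM over 3 PDOXs, and fibroblast-like cells, at 41.0 CPM, which could not be ordered. Aspg was likewise highest in astrocyte-like cells, at 20.8 CPM (14.8 to 82.2), with all 6 PDOXs above their myeloid-like cells (median 1.11 CPM). Cd44 was highest in astrocyte-like cells, at 60.8 CPM (19.9 to 406), and then in myeloid-like cells, at 31.7 CPM (3.90 to 78.6). Astrocyte-like exceeded myeloid-like Cd44 in 5 of 6 PDOXs, with overlapping ranges.

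Other genes of the set were higher outside the astrocytes. Of these 7 classes Vim had its highest median in endothelial-like cells, at 1118 CPM (691 to 2098, 7 PDOXs), then in mural-like cells, at 887 CPM (493 to 2476), and then in astrocyte-like cells, at 578 CPM, and these 3 classes overlapped. Cycling cells, outside the order, held more Vim, at 2534 to 5389 CPM (median 4942) in 5 PDOXs, and 63.6% to 91.7% of them held a Vim UMI at 500 UMIs. Processed pseudogenes took 29.4% to 36.2% of the UMIs of cycling cells, and their part in this was not tested. Of the 7 classes Nes was highest in vessel cells, with 649 CPM in endothelial-like (307 to 1018) and 647 CPM in mural-like cells (196 to 1213), and astrocyte-like cells, at 29.5 CPM, came behind myeloid-like ones in 5 of 6 PDOXs. Serpina3n was higher in OPC-like than in astrocyte-like cells in all 6 PDOXs with both, at medians of 313 CPM (46.9 to 809) and 132 CPM (39.9 to 406). The value of OPC-like cells (oligodendrocyte progenitors) in P13, 46.9 CPM against 40.3 CPM in astrocyte-like cells, is 1 UMI, so P13 shows no difference. In P8 18.5% of 426 OPC-like cells held it at 500 UMIs. Nude-Brain had 5 OPC-like cells, too few for a value. Lcn2 had its highest median in endothelial-like cells, at 68.6 CPM (17.9 to 260), above myeloid-like cells in 7 of 7 PDOXs, but in T192 astrocyte-like cells stood higher, at 340 CPM against 260 CPM. Osmr was led by fibroblast-like (106 CPM, 3 PDOXs), endothelial-like (90.0 CPM) and mural-like cells (73.7 CPM), whose order did not hold between PDOXs, and stood at 39.0 CPM in astrocyte-like cells.

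**Figure D5:**
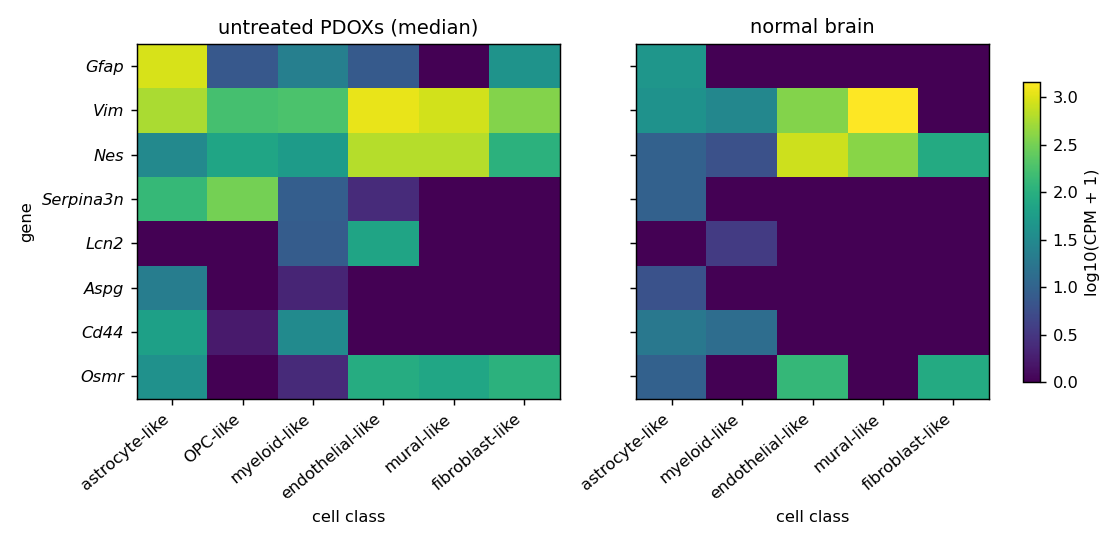
Heat map of log10(CPM + 1) of the 8 genes (rows) by cell class (columns), as the median of the untreated PDOXs on the left and as the single normal brain on the right. Of the classes drawn on the left, Gfap and Aspg are brightest in astrocyte-like cells, Serpina3n in OPC-like cells, Lcn2 in endothelial-like cells, and Vim and Nes in vessel cells; cycling cells are not drawn.

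In myeloid-like cells, which hold microglia and infiltrating macrophages, Vim and Nes were above Nude-Brain in 7 of 7 PDOXs. Vim was at 27.7 CPM in the brain and at 101.2 in P8, 574 in T101, 181 in T192, 223 in T233, 180 in P3, 55.6 in T16 and 339 CPM in P13. Nes was at 5.04 CPM in the brain (2 UMIs) and at 143 in P8 and 50.03 to 85.1 CPM in the others. Both genes were thus above the brain with no overlap, as were 16.9% of the 8634 genes tested in this class, while 32.2% of genes and none of the 8 were below the brain in every PDOX. Vessel markers moved with them. The 12 endothelial markers summed to 42.9 CPM in myeloid-like cells of the brain and to 356 to 712 CPM in those of the PDOXs, and the 12 mural markers to 63.0 and 151 to 586 CPM. Of the 7 ordered classes vessel cells had the highest medians of Vim and Nes, and the part of vessel transcripts here was not tested. The fitted log2 differences were 3.32 ± 1.14 for Vim (SE, edgeR, adjusted p = 0.147) and 4.09 ± 0.93 for Nes (SE, edgeR, adjusted p = 0.0858), and neither passed. edgeR called 1 gene of 8634 (0.0116%), none of the reactive astrocyte genes, with 1756 genes at an unadjusted p under 0.05. DESeq2 called 242 genes, Vim (adjusted p = 0.00695) and Nes (0.00773) among them, and edgeR's likelihood ratio test called 97, with Nes (0.00680). Cd44 was above the brain in 5 of 7 PDOXs, with a log2 difference of 1.67 ± 1.06 (SE, edgeR, adjusted p = 0.391). Serpina3n, Aspg and Osmr did not pass the filter on low counts, at no more than 16.8 CPM in any sample.

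Gfap UMIs were also counted in myeloid-like cells of 6 PDOXs, at up to 59.3 CPM in T192 and 58.6 CPM in T233, and not in those of Nude-Brain. Astrocyte markers were counted in these cells as well. The Gfap UMIs per UMI of the astrocyte markers were 0.0541 in myeloid-like and 0.0531 in astrocyte-like cells of T192, and 0.0571 and 0.0478 in T101. They were 0.0155 and 0.00941 in P8, 0.0978 and 0.0458 in T233, 0.0167 and 0.00722 in T16, and 0.00579 and 0.00785 in P13. The ratio was thus alike in both classes of T192, lower in myeloid-like cells of P13 and higher in those of the other 4, on 4 to 53 Gfap UMIs. The myeloid-like cells of Nude-Brain held 590 UMIs of the astrocyte markers and no Gfap UMI. The part of free or engulfed astrocyte RNA in the myeloid-like values of Gfap was not tested.

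In endothelial-like cells Vim was at 377 CPM in Nude-Brain (6 UMIs of 15911) and at 929 in P8, 1118 in T101, 1257 in T192, 1238 in T233, 909 in P3, 691 in T16 and 2098 CPM in P13. All 7 PDOXs were above the brain, and the interval of the ratio in T16, 1.83 (0.835 to 5.02), included equality. The fitted log2 difference was 2.503 ± 0.76 (SE, edgeR, adjusted p = 0.271), while the median over all genes tested was itself 0.76, and 33.5% of these genes lay above the brain in every PDOX and 34.9% below it. Nes was at 817 CPM in the brain and above it in 2 of 7 PDOXs, at 307 to 1018 CPM, with a fitted log2 difference of 0.51 ± 0.67 (SE, edgeR, adjusted p = 0.730) that turned to -0.26 without TMM scaling. Osmr was at 126 CPM in the brain (2 UMIs) and above it in 2 of 7 PDOXs. Of 6307 genes tested, edgeR called 0 (0%), with 832 at an unadjusted p under 0.05, and DESeq2 called 0.

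Lcn2 was found in endothelial-like cells of all 7 untreated PDOXs. Its level was 17.9 CPM in P8, 207 in T101, 260 in T192, 68.2 in T233, 90.0 in P3, 43.2 in T16 and 68.6 CPM in P13, and at 500 UMIs it was found in 1.08% to 8.33% of cells. No Lcn2 UMI was counted among the 15911 UMIs of endothelial-like cells of Nude-Brain. Since 3 UMIs would make 188.5 CPM there, only T101 and T192 lay above that floor, at 1.10 and 1.38 times it, on 30 and 56 UMIs. These margins are small, so a difference is uncertain in T101 and T192. In the others it was not detectable at this depth. T101 and T192 lay highest among untreated PDOXs in this class. In mural-like cells Vim was above the brain (1443 CPM, 11 UMIs) in 3 of 7 PDOXs and Nes in 4 of 7, and the fitted log2 differences of -0.06 ± 0.85 and 0.95 ± 1.10 (SE, edgeR) stood beside a median of 0.56 over 631 genes tested. Every PDOX was above the brain for 25.2% of these genes and below it for 21.9%, and neither held for Vim or Nes, and 0 genes were called (0%, 84 at an unadjusted p under 0.05).

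Whether the difference between PDOXs and brain was another in astrocyte-like than in other cells was tested as an interaction, with the sample as a block. Against myeloid-like cells, edgeR called 2 of 10263 genes (0.0195%), none of the 8 reactive astrocyte genes, with 544 genes at an unadjusted p under 0.05 and none called by DESeq2. Vim differed by 1.13 ± 0.87 more on the log2 scale in astrocyte-like cells (SE, adjusted p = 1) and Nes by -1.58 ± 1.33 (SE, adjusted p = 1), beside a median of -0.11 over all genes. Against endothelial-like cells 0 of 7721 genes were called (0%), with 456 at an unadjusted p under 0.05. The interaction was 1.76 ± 1.13 for Vim (SE, edgeR, adjusted p = 0.770) and 1.84 ± 1.08 for Nes (SE, edgeR, adjusted p = 0.770), with a median of -1.08 over all genes. An effect of its own in astrocyte-like cells is therefore not shown for any of the genes, and for Gfap the fitted value depends on how the 0 of the brain in both other classes is handled.

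P3 after temozolomide was compared with untreated P3, with 1 sample on either side and so without a test. In endothelial-like cells Vim was at 909 CPM in P3 and 973 in P3TMZ, a ratio of 1.07 (exact 95% interval 0.844 to 1.35). Lcn2 was at 90.0 and 206 CPM, 2.29 times as high after temozolomide (1.21 to 4.403), and Nes was at 649 and 412 CPM, a ratio of 0.636 (0.450 to 0.885). In cells thinned to 500 UMIs the ratios of Lcn2 and Nes were 1.62 (0.4663 to 5.84) and 0.694 (0.338 to 1.36), intervals that include equality. Osmr had a ratio of 0.642 (0.228 to 1.59), and Serpina3n had 0 UMIs in P3 and 5 in P3TMZ. In myeloid-like cells Vim was at 180 and 100 CPM, a ratio of 0.559 (0.375 to 0.839), and Nes at 78.1 and 28.0 CPM, a ratio of 0.358 (0.176 to 0.721). For Vim the direction turned in thinned cells, where the ratio was 1.19 (0.392 to 4.33). In mural-like cells Vim had a ratio of 1.28 (0.730 to 2.28). P3TMZ held 13 astrocyte-like cells, with 5 Gfap UMIs (918 CPM) and 9 Vim UMIs (1652 CPM) among 5448, and these have no counterpart in untreated P3.

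Other genes of astrocyte reactivity were read from lists in the same astrocyte-like cells, and none was called by edgeR. Which of them could be tested depended on the filter on low counts, which genes at 0 to 2 UMIs in the brain passed through the PDOXs alone, so that for these the sign was fixed by it. Of 6 other pan-reactive genes 3 could be tested, with a median log2 difference of 7.86. S1pr3, a sphingosine 1-phosphate receptor, and Cxcl10, a chemokine, had no UMI in the brain and means of 172 and 112 CPM in the PDOXs, and Cp, which encodes ceruloplasmin, had 2 UMIs (3.44 CPM) and a mean of 45.2 CPM. Each was above the brain in 5 of 6 PDOXs.

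Of 12 genes raised by lipopolysaccharide in astrocytes 8 could be tested, with a median of 4.02, and H2-D1, a major histocompatibility class I gene, is the one of its 3 most abundant genes with more than 1 UMI in the brain. H2-D1 was at 29.3 CPM in the brain and at 174 to 1951 CPM in the PDOXs, above it in 6 of 6, with a fitted log2 difference of 3.99 ± 1.05 (SE, edgeR, adjusted p = 0.326). Gbp2 and Iigp1, both interferon-induced GTPases, had 1 and 0 UMIs in the brain and means of 143 and 176 CPM in the PDOXs, and each was above the brain in 5 of 6. Of 12 genes raised by ischemia 3 could be tested, with a median of 4.13 and 1 or 2 UMIs each in the brain. S100a10, a partner of annexin, was above the brain in 6 of 6 PDOXs, at 14.9 to 71.3 CPM, Tm4sf1 in 3 of 6 and Ptx3, a pentraxin, in 4 of 6. Several of these genes are also known from myeloid cells, H2-D1 standing at a mean of 3378 CPM in myeloid-like cells of the PDOXs, and the part of myeloid transcripts in these lists was not tested.

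In the pathway of oncostatin M, 9 of 19 genes for ligands, receptor subunits, kinases and targets of gp130 and STAT3 could be tested and 7 lay above 0, with a median log2 difference of 0.32. Jak1, a kinase bound to gp130, was at 136 CPM in the brain and a mean of 174 CPM in the PDOXs, above it in 4 of 6. Stat3 was at 51.6 CPM in the brain and a mean of 133 CPM in the PDOXs, above it in 4 of 6, with a fitted log2 difference of 1.20 ± 0.73 (SE, edgeR, adjusted p = 0.547). Lifr, the subunit that pairs with gp130 for leukemia inhibitory factor, was at 150 CPM in the brain and above it in 1 of 6 PDOXs (mean 91.6 CPM).

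Of 12 filament genes and linkers 2 could be tested, with a median of -0.41. Dst, which encodes the cytolinker dystonin, was at 1100 CPM in the brain and below it in 6 of 6 PDOXs, at 313 to 889 CPM, as was every PDOX for 19.4% of genes tested, with a log2 difference of -1.05 ± 0.48 (SE, edgeR, adjusted p = 0.441). Plec, which encodes plectin, was at 27.5 and a mean of 29.8 CPM, and Synm, which encodes synemin, at 6.89 and 22.4 CPM, both above the brain in 4 of 6. Of 11 partners of Cd44 and Lcn2, 7 could be tested and 3 lay above 0, with a median of -0.17. Timp3, a metalloproteinase inhibitor, was at 1460 CPM in the brain and below it in 6 of 6 PDOXs (mean 803 CPM), and Ezr, which encodes the Cd44 linker ezrin, was at 343 CPM and above it in 2 of 6 (mean 298 CPM). Spp1, which encodes the Cd44 ligand osteopontin, was at 1.72 CPM (1 UMI) and a mean of 205 CPM, above the brain in 5 of 6. Spp1 was at 1431 to 13631 CPM in myeloid-like cells of the 7 PDOXs, and at 20.2 CPM in those of the brain.

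Genes with a like pattern were sought over 57 sums of at least 30 cells, each a cell class in a sample, among 7515 genes, by Pearson's r of log2(CPM + 10). The sums share samples and classes, and r is given as a description. Gfap was most like Aldh1l1 (0.82), Mlc1 (0.80) and Aqp4 (0.80), all of them genes of astrocytes. Cd44 was most like Gfap (0.75), Aldh1l1 (0.70) and S100a4 (0.66), and Aspg, at a mean of only 4.72 CPM, like Gfap (0.71), Aldh1l1 (0.71) and Lcat (0.69). Vim was most like Rab13 (0.71), Anxa5 (0.69) and Spata6 (0.68), and no astrocyte gene was among its closest. Nes was closest to Esam (0.80), an adhesion molecule of endothelial cells, then to Car4 (0.78) and Apold1 (0.77). Lcn2 was closest to Lrg1 (0.78), Grrp1 (0.77) and Tmem252 (0.76), and Osmr to Prkcdbp (0.79), Arhgap29 (0.78) and Plat (0.77). Serpina3n was closest to Gfra1 (0.85), Rlbp1 (0.80) and Plekhb1 (0.80).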

How the data were processed

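The deposited files hold raw counts, namely UMIs per gene and cell barcode, which the authors made from Drop-seq reads. The submitters' processing notes name STAR, bcl2fastq 2.0 and GRCm38, with no role or order. Barcodes under 200 detected genes or over 30% mitochondrial UMIs were dropped, and the 5% with the highest doublet scores of each sample were left out. Clustering (Python 3.11.15, scanpy 1.11.5, leidenalg 0.10.2) used 2000 variable genes without the 8 genes and the listed genes, 30 principal components, 20 neighbors, resolution 1 and seed 1. A cluster was named from at least 3 detected markers that made up at least 50% of a marker list, with 2 markers in at least 30% of its cells. This rule was revised after the clusters were seen. UMIs were summed per sample and class from at least 10 cells, and CPM scales a gene's sum to all UMIs of that sum. The sums were tested with edgeR 4.0.16 (quasi-likelihood test, TMM, filter on low counts, R 4.3.3) with Benjamini-Hochberg adjustment, and called at an adjusted p of at most 0.01 and a log2 difference of at least 1. DESeq2 1.42.0 was an alternative. The scripts were tested on simulated data. Ratios, shares and their intervals are exact 95% intervals, and a count of 0 was bounded by 3 counts.

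Named genes are the 8 genes in each class, of each further list those past the threshold and the 3 with the highest mean CPM in a class (printed here for astrocyte-like cells), and the 3 genes most like each of the 8. The 8 genes, the lists and the markers were chosen with earlier results of these data known. The count of genes above the brain in every PDOX and its alternatives (samples left out, every cell counted equally, thinned cells, classes called cell by cell from markers, a single cluster) were chosen after seeing the data.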

Additional observations from a re-analysis of the deposited data

Results flagged for a closer look

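In each cell class with 6 or 7 PDOXs, the PDOX farthest from the others was sought for each of the 8 genes by its gap to the nearest PDOX over the whole range. Of 39 groups tested, 11 had such a PDOX, where chance gives about 1 in 20 groups. However, 4 of the 11 rest on a single UMI, for which the gap is large by construction, so the number cannot be set against chance. In astrocyte-like cells T192 stood apart for Nes (153 CPM), Lcn2 (340 CPM), Aspg (82.2 CPM) and Cd44 (406 CPM). P8 stood apart for Nes in myeloid-like cells (143 CPM) and for Osmr in OPC-like cells (6.78 CPM, 5 UMIs). The OPC-like sums of the other PDOXs had no Osmr UMI and held at most 157360 UMIs, against 737971 in P8. The gap for Osmr thus cannot be told apart from depth. P13 stood apart for Vim in endothelial-like cells (2098 CPM) and, on 1 UMI each, for Serpina3n and Lcn2 in mural-like cells (1.79 CPM each). T16 stood apart for Aspg in OPC-like (6.35 CPM) and mural-like cells (14.1 CPM), also on 1 UMI each.

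Vim was also counted in cells that no comparison above uses. It stood at 5389 CPM in cycling cells of P3, and at 6726 CPM in cells of T101 whose clusters could not be named, against 185 CPM in such cells of Nude-Brain. Processed pseudogenes took 29.4% to 36.2% of the UMIs of cycling cells in PDOXs with at least 10 of them and 26.3% in the unnamed cells of T101, and their part in these values was not tested.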

How the results depend on the processing

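PDOXs and brain could not be paired because the labels give no replicate numbers that the groups share. The interaction between classes did use the sample as a block. Of 529 values under alternatives, 475 kept their direction and their side of the threshold or their range. Beside counts, shares and temozolomide ratios, they cover the 8 genes in astrocyte-like cells and Vim in the interactions. They also cover Vim, Nes and Cd44 in myeloid-like cells, and Vim and Nes in endothelial-like and mural-like cells. Genes outside them turned as well. Osmr in endothelial-like cells was above 0 in 9 of 16 alternatives and as low as -0.56, and interaction fits of several genes other than Vim turned. In astrocyte-like cells the fitted differences of the 8 genes stayed above 0 under each alternative that could be fitted. There edgeR called 34 genes without a gene filter, 4 of them among the 8, 3 in thinned cells, and 0 to 12 when 1 PDOX was left out (12 without P8). In myeloid-like cells it called 3 at an adjusted p of at most 0.05, 2 without TMM, 2 without a gene filter, 2 with at least 500 genes per cell, 3 in thinned cells and 1 to 53 with 1 PDOX left out (53 without P8). DESeq2 called 242 genes there, 2 of the 8 among them, and the likelihood ratio test 97, with 1 of the 8. In mural-like cells that test called 2. The difference of Nes in endothelial-like cells turned to -0.26 without TMM and to -0.21 in thinned cells. That of Vim in mural-like cells turned to 0.78 without a gene filter, 1.53 with clusters at resolution 2, 0.21 without T233 and 0.09 without P3, and ranged from -0.66 to 0.21 with 1 PDOX left out. The interaction with myeloid-like cells had 0 calls with DESeq2, 5 with no doublets removed, 5 with 10% removed, 1 with at least 500 genes per cell, 0 with classes called cell by cell and 0 to 7 with 1 PDOX left out (7 without P8 and 7 without P13). That with endothelial-like cells had 4 without a gene filter, 1 with no doublets removed, 3 with 10% removed, 2 at resolution 2 and 0 to 5 with 1 PDOX left out (5 without P8). Genes above the brain in every PDOX numbered 3 with every cell counted equally, 3 in thinned cells, 3 with classes called cell by cell, 2 in cluster 10, and 6 to 7 without T192 or T101. The mean share of cells was 46.8% for Vim with classes called cell by cell and 12.7% for Serpina3n at 800 UMIs, and the temozolomide ratio of Vim in myeloid-like cells was 1.19 in thinned cells. The causes were not tested. Endothelial-like and mural-like cells with at least 500 genes, thinned mural-like cells and the endothelial interaction with at least 500 genes were not run, since the brain had under 10 cells. A single normal brain, 34 endothelial-like cells in it and 46 astrocyte-like cells in T101 limit what these counts can show.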
